A study of Homo sapiens with 18 samples.

Results

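Aminoacyl-tRNA synthetases are the enzymes that join each amino acid to its transfer RNA. The 36 human genes for them that are described here were taken by name, and they comprise 20 whose products work in the cytosol and 16 whose symbols end in 2 and whose products work in mitochondria. They are 36 of the 28395 genes in the count table. All 36 were among the 14571 genes that passed the filter on low counts, and the smallest count of any of them in any library was 69.

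RNA had been sequenced from 18 libraries of H929, MM1S and OPM2, which are established lines of multiple myeloma, a cancer of plasma cells. Cells of each line with an IKZF1 knockout, and OPM2 cells with an IKZF3 knockout, were set against cells of the same line with an empty vector. All knockout and empty vector cells had been given doxycycline at 1 µg/mL, which induces expression of the guide RNA, for 72 h. OPM2 cells cultured for 72 h in lenalidomide (10 µM) were set against untreated OPM2 cells. IKZF1 and IKZF3 encode Ikaros and Aiolos, zinc finger transcription factors of lymphoid cells that lenalidomide directs to degradation. Each of the 9 groups had 2 libraries, and live cells had been sorted before RNA extraction. The sources used here do not say whether the 2 libraries of a group came from separate cultures, clones or guides. The 2 knockout columns of a group carry different codes in the count table, and what the codes mean is not given. The p-values thus rest on the spread between libraries of a group, pooled over all 9 groups, which may be technical. A comparison is therefore not judged by the spread of its own libraries alone.

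A synthetase activates its amino acid with ATP and then transfers it to the matching tRNA. Most cytosolic and mitochondrial enzymes for the same amino acid are encoded by separate nuclear genes, whereas GARS and KARS each encode both forms. Plasma cells make immunoglobulin in bulk, and their supply of charged tRNA is watched by the kinase GCN2, which senses uncharged tRNA and raises translation of the transcription factor ATF4. Many cytosolic synthetase genes have been reported as ATF4 targets, and ATF4 with a C/EBP partner binds a composite element whose core reads TGATGNAA, where N is any base. For description, the 20 cytosolic genes were divided into 12 reported as ATF4 targets (AARS, CARS, EPRS, GARS, IARS, LARS, MARS, NARS, SARS, TARS, WARS and YARS) and 8 others (DARS, FARSA, FARSB, HARS, KARS, QARS, RARS and VARS).

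The core TGATGNAA was searched on both strands in RefSeq promoter windows of build GRCh38.p14, each 300 bases long, with 250 bases before and 50 after an annotated start of transcription. Of the 36 genes, 30 had a window. The core was present in 7 of 16 cytosolic genes with a window (43.8%), in 1 of 14 mitochondrial genes (7.14%) and in 1217 of all 27305 genes (4.46%). All 7 cytosolic matches were among the 10 reported ATF4 targets with a window (70.0%), and none of the 6 other cytosolic genes with a window had one. The lists and the motif were chosen with earlier results of these data known, and a link between core and fold change was not tested. The matches are shown because those in cytosolic genes all lie in the class with the lowest median fold change in MM1S and with lenalidomide. Each is printed in a stretch of 30 bases, 5′ to 3′, on the strand that reads TGATGNAA, with the core in capitals.
AARS: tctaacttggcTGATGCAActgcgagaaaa
CARS: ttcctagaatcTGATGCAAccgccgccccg
GARS: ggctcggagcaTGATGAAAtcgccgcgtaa
IARS: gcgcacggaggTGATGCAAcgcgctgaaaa
MARS: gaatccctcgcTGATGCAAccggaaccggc
NARS: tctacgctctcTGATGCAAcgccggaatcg
TARS: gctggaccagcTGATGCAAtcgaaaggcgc
YARS2: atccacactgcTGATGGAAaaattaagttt

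The printed stretches lie at chr16:70289675-70289704 on the plus strand for AARS, chr11:3057407-3057436 on the plus strand for CARS and chr7:30594834-30594863 on the minus strand for GARS. Those of IARS and MARS lie at chr9:92293692-92293721 on the plus strand and chr12:57488053-57488082 on the minus strand. Those of NARS and TARS lie at chr18:57621804-57621833 and chr5:33440956-33440985, both on the minus strand. The only mitochondrial match, in YARS2, lies at chr12:32756076-32756105 on the minus strand. The cytosolic cores read TGATGCAA, apart from that of GARS, which reads TGATGAAA. In CARS, GARS, IARS, MARS, NARS and TARS the core lay between 33 bases before and 22 bases after the annotated start, and in AARS and YARS2 it began 187 and 197 bases before it. For GARS and TARS the position is counted from the downstream of 2 annotated starts. A match describes these letters only, and no binding was measured.

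**Figure D1:**
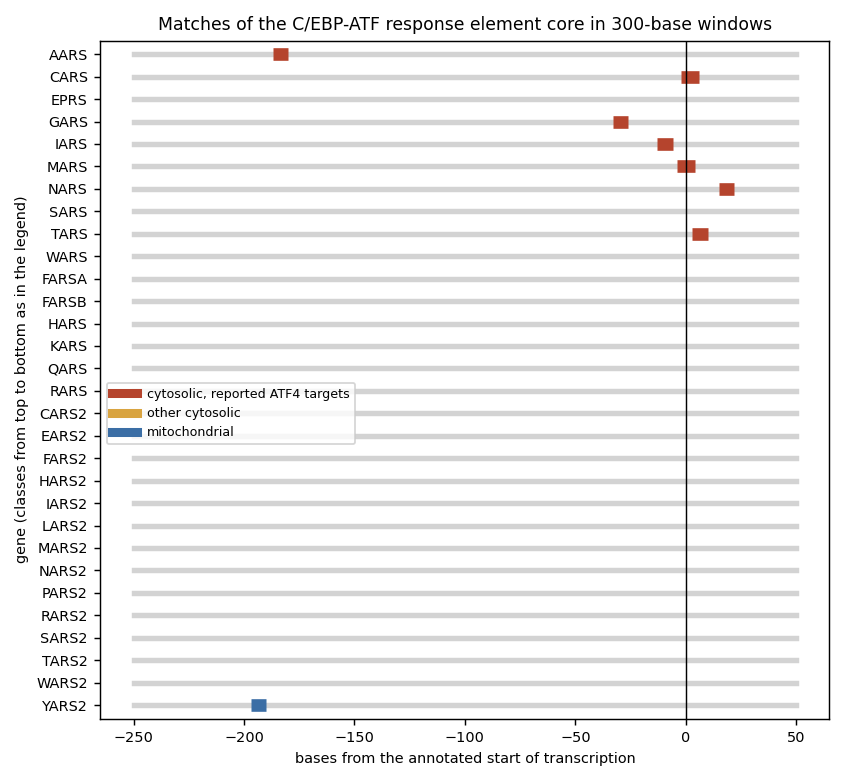
Position of each TGATGNAA match (coloured block), in bases from the annotated start of transcription, in the 300-base windows (grey bars) of the 30 synthetase genes that had one. The matches of CARS, GARS, IARS, MARS, NARS and TARS sit close to the start, and those of AARS and YARS2 lie farther upstream.

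Depth ran from 11.8 to 24.19 M counts per library. All 8 plasma cell markers were above 1 count per M counts (CPM) in every library, with a summed level of 7190 to 23000 CPM. The summed T and NK cell markers reached at most 43.9 CPM, the myeloid ones 5.13 CPM, the mature B cell ones 23.8 CPM and the erythroid and stromal ones 18.7 CPM. IKZF1 RNA was not lower in the knockouts: it had 124 and 188 CPM in H929 knockout libraries, against 128 and 120 CPM in empty vector libraries. In MM1S it had 312 and 333 CPM in knockout libraries, against 179 and 185 CPM in empty vector libraries. In OPM2 it had 213 and 225 CPM in IKZF1 knockout libraries, against 94.3 and 188 CPM in empty vector libraries, and IKZF3 had 69.3 and 66.6 CPM in IKZF3 knockout libraries, against 44 and 50.3 CPM. RNA levels therefore gave no check of the knockouts. The OPM2 empty vector pair was uneven, and replicate 1 was the odd library: 1638 genes lay over 2-fold apart within that pair, compared with 258 to 980 within any other. Of the 36 synthetase genes, 7 differed more than 1.5-fold between the 2 OPM2 empty vector libraries, and 0 or 1 did in each other group. Results that rest on this group were therefore also examined without that library, and those of the OPM2 knockouts against untreated cells too. The share of all genes called also moved between fits that left out a library, so a changed count need not be particular to synthetases.

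Cytosolic synthetase RNA was more abundant than mitochondrial synthetase RNA in all groups. Per length, the authors' deposited table of log2 FPKM gave the 20 cytosolic genes a median of 6.62 in H929, 5.93 in MM1S and 6.93 in OPM2 empty vector cells. The same table gave the 16 mitochondrial genes medians of 3.28 in H929, 3.32 in MM1S and 3.73 in OPM2 empty vector cells. AARS, which charges alanine, was the highest in OPM2 at 8.42, FARSA, the catalytic subunit of the phenylalanine enzyme, in H929 at 7.54, and EPRS, the joint glutamate and proline enzyme, in MM1S at 7.54. Among mitochondrial genes the isoleucine enzyme IARS2 led in OPM2 (5.87) and MM1S (6.15), and the threonine enzyme TARS2 in H929 (5.38). The gap between the enzymes of 1 amino acid varied with the amino acid and with the line. Over the 14 columns of the authors' deposited table, the log2 FPKM of WARS exceeded that of WARS2 by a median of 5.71, with a range of 2.50 to 7.03. IARS exceeded IARS2 by a median of 0.36 log2 FPKM in the authors' deposited table and lay below it in some columns, with a range of -1.02 to 1.28. SARS exceeded SARS2 by a median of 0.54 log2 FPKM there, with a range of -0.15 to 1.85.

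The summed level of the 20 cytosolic genes was lowest in the MM1S knockout, at 3306 and 3041 CPM, against 4876 and 4846 CPM in MM1S empty vector libraries. With lenalidomide it was 4768 and 4885 CPM, against 7757 and 7880 CPM in untreated OPM2 libraries. In H929 it was 6074 and 6110 CPM in knockout libraries, against 6462 and 6742 CPM in empty vector libraries. In the OPM2 knockouts it was 6509 and 6349 CPM for IKZF1 and 5768 and 5687 CPM for IKZF3, against 8424 and 7959 CPM in empty vector libraries. Mitochondrial sums were 735.8 and 702.8 CPM in MM1S knockout libraries, against 761.2 and 757.7 CPM in empty vector libraries. With lenalidomide they were 701.2 and 724 CPM, against 759.2 and 773.7 CPM in untreated libraries. In H929 they were 691.3 and 665.2 CPM in knockout libraries, against 698.3 and 710.1 CPM in empty vector libraries. In OPM2 they were 814.1 and 778.1 CPM with IKZF1 knockout and 774.6 and 795.8 CPM with IKZF3 knockout, against 993.9 and 931.9 CPM in empty vector libraries. Both sums were lower in both knockout or treated libraries than in both controls in all 5 comparisons, and the OPM2 empty vector libraries had the highest sums of all. In bulk RNA a lower level per cell and fewer cells with a high level cannot be told apart.

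**Figure D2:**
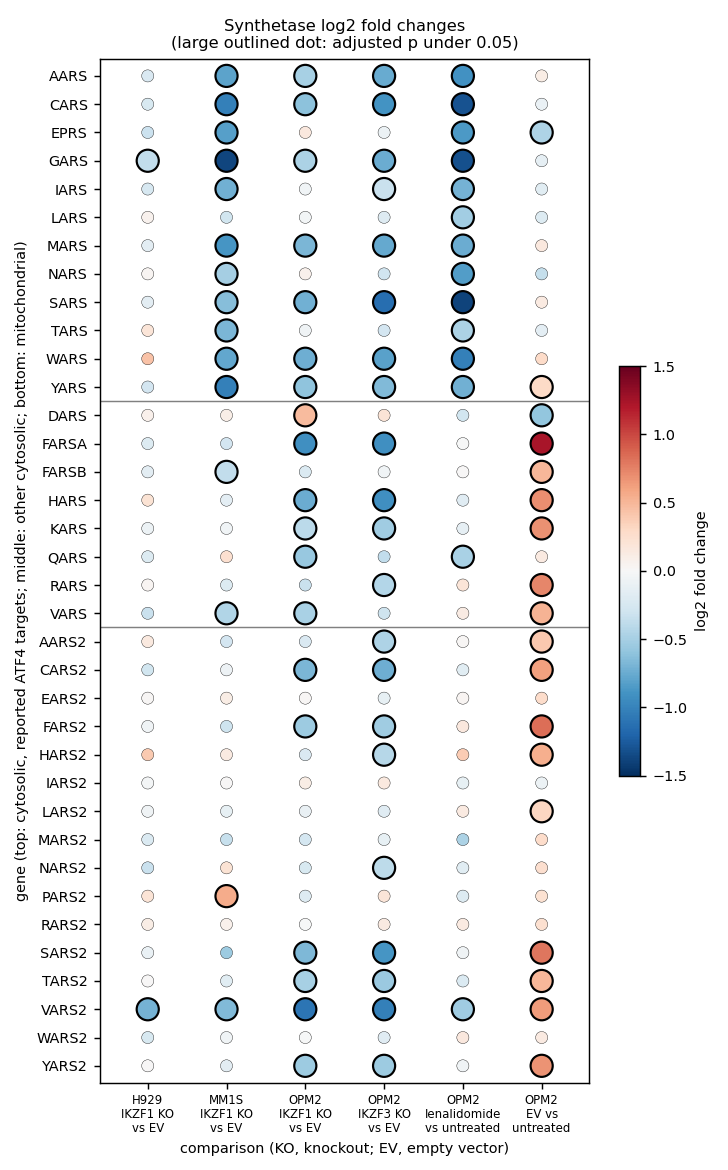
Log2 fold change (colour) of the 36 synthetase genes (rows) in 6 comparisons (columns), with large outlined dots for genes called at an adjusted p under 0.05. The column for MM1S and that for lenalidomide show calls mainly in the top block, those for the OPM2 knockouts in all 3 blocks, and H929 has 2 calls.

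In MM1S cells, loss of IKZF1 went with lower RNA of 13 of the 20 cytosolic synthetases, among them 11 of the 12 reported ATF4 targets, while 14 of the 16 mitochondrial ones were not called. The glycine enzyme GARS fell most, followed by the enzymes for tyrosine (YARS), cysteine (CARS) and methionine (MARS). Here and below a gene counts as called when edgeR's quasi-likelihood test, adjusted over all genes by Benjamini-Hochberg, gives p under 0.05, and by this rule 12.6% of all genes were lower in MM1S knockout cells and 15.6% higher. The median log2 fold change was -0.79 for the reported ATF4 targets, -0.18 for the 8 other cytosolic genes and -0.10 for the mitochondrial genes, against 0 for all genes tested.

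GARS (chr7:30594735-30634033, GRCh38.p14), which holds a core near the downstream of its annotated starts, had 135 and 128 CPM in MM1S knockout libraries, against 332 and 353 CPM in empty vector libraries, a log2 fold change of -1.38 ± 0.11 (SE, adjusted p = 4.46e-07). YARS had 167 and 162 CPM in knockout libraries, against 337 and 337 CPM in empty vector libraries (-1.03 ± 0.11, adjusted p = 8.05e-06). CARS had 56.8 and 52.2 CPM, against 109 and 112 CPM in empty vector libraries (-1.02 ± 0.12, adjusted p = 2.48e-05). For these 3 enzymes both knockout libraries lay far below both empty vector libraries, with little spread within a pair. MARS, which also supplies the initiator methionyl-tRNA, had 161 and 153 CPM in knockout libraries, against 295 and 289 CPM in empty vector libraries (-0.89 ± 0.12, adjusted p = 6.78e-05). EPRS had 471 and 413 CPM in knockout libraries, against 792 and 782 CPM in empty vector libraries (-0.83 ± 0.17, adjusted p = 0.00228). AARS had 247 and 239 CPM in knockout libraries, against 432 and 411 CPM in empty vector libraries (-0.80 ± 0.12, adjusted p = 0.000229). EPRS and MARS belong to the multisynthetase complex, whereas AARS, CARS, GARS and YARS act outside it. WARS, the tryptophan enzyme that interferon gamma induces, had 51.9 and 49.9 CPM in knockout libraries, against 89.7 and 85.1 CPM in empty vector libraries (-0.78 ± 0.16, adjusted p = 0.00207). IARS had 169 and 156 CPM in knockout libraries, against 261 and 273 CPM in empty vector libraries (-0.72 ± 0.13, adjusted p = 0.00062).

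Of the remaining reported targets in MM1S, TARS, SARS and NARS also fell, by 0.68, 0.64 and 0.51 on the log2 scale. LARS, the leucine enzyme, was the exception at -0.29 ± 0.13 (adjusted p = 0.11). Among the 8 other cytosolic genes, VARS and FARSB fell, by 0.45 and 0.37 on the log2 scale, and the remaining 6 ranged from -0.27 (FARSA) to 0.24 (QARS) without a call. A pair of mitochondrial genes were called, in opposite directions. The valine enzyme VARS2 had 23.4 and 23.8 CPM in MM1S knockout libraries, against 36 and 38.7 CPM in empty vector libraries (-0.66 ± 0.16, adjusted p = 0.0056). The proline enzyme PARS2 had 10.2 and 10.4 CPM in knockout libraries, against 6.93 and 7.06 CPM in empty vector libraries (0.56 ± 0.17, adjusted p = 0.0206). In both, the knockout and empty vector libraries did not overlap. Here and below, genes without overlap had been named for their fold changes, and the share of all genes without overlap was not counted. With 2 libraries against 2, the smallest p of an exact permutation test is 0.333. The calls of VARS and PARS2 were lost without any 1 of the 4 MM1S libraries, with adjusted p up to 0.118 for VARS and 0.112 for PARS2. Those of NARS and FARSB were lost without knockout library b or either empty vector library, with adjusted p up to 0.179 for NARS and 0.201 for FARSB. The summed plasma cell markers were higher in MM1S knockout libraries, at 11700 to 12100 CPM, against 7190 to 7330 CPM in empty vector libraries, and the part of this in the synthetase values was not tested.

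In H929 cells loss of IKZF1 went with almost no change that passed the test. GARS and VARS2 were called lower and no other synthetase was called, where 4.6% of all genes were called lower and 5.92% higher. GARS had 352 and 410 CPM in H929 knockout libraries, against 473 and 510 CPM in empty vector libraries (-0.37 ± 0.10, adjusted p = 0.0338). VARS2 (chr6:30914238-30926459) had 24.8 and 28 CPM in knockout libraries, against 42.3 and 44.1 CPM in empty vector libraries (-0.71 ± 0.16, adjusted p = 0.00796). In both genes the knockout libraries lay below the empty vector libraries. The median log2 fold change was -0.20 for the reported ATF4 targets, -0.13 for the other cytosolic genes and -0.04 for the mitochondrial genes, against -0.03 for all genes tested. WARS went the other way in H929 without passing the test, with 681 and 443 CPM in knockout libraries, against 415 and 417 CPM in empty vector libraries (0.44 ± 0.15, adjusted p = 0.092). The 2 WARS knockout values lay far apart, and the lower of them exceeded the empty vector values by little. The GARS call was lost in 11 of 18 fits that left out 1 library, with adjusted p up to 0.288, among them fits without a library of another line, and also with no filter on low counts and with only the groups compared. That of VARS2 was lost without knockout library a or without empty vector replicate 2 (adjusted p up to 0.089), and 0 synthetases were then called. With no filter on low counts WARS was called higher (adjusted p = 0.0416) and no cytosolic gene lower. The OPM2 empty vector libraries are not part of this comparison but enter the shared estimate of spread. Without replicate 1 of them more synthetases and more of all genes were called in H929, while the class medians stayed at -0.20, -0.13 and -0.04.

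The effect of IKZF1 loss was compared between lines by testing the difference of the log2 fold changes. Between MM1S and H929, 7 synthetases differed, all lower in MM1S and all reported ATF4 targets, where 6.94% of all genes differed in that direction. WARS differed by -1.21 ± 0.22 (adjusted p = 0.00167), which rests in part on H929 knockout library a: without it the difference was -0.88 ± 0.17 (adjusted p = 0.00382), and WARS in H929 stood at 0.09. GARS differed by -1.01 ± 0.15 (adjusted p = 0.00029), and by -1.13 without that library. The others were TARS at -0.87 ± 0.16 (adjusted p = 0.00152) and CARS at -0.78 ± 0.17 (adjusted p = 0.00553). YARS, MARS and AARS differed by -0.77, -0.73 and -0.56. The call of AARS was lost in 13 of 18 fits that left out 1 library, among them those without any 1 of the MM1S libraries, with adjusted p up to 0.148. Without either OPM2 empty vector library more synthetases differed between MM1S and H929, although these libraries are not part of that comparison. All 12 reported targets had a negative difference, with a median of -0.65, against -0.09 for the other cytosolic and -0.04 for the mitochondrial genes.

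**Figure D3:**
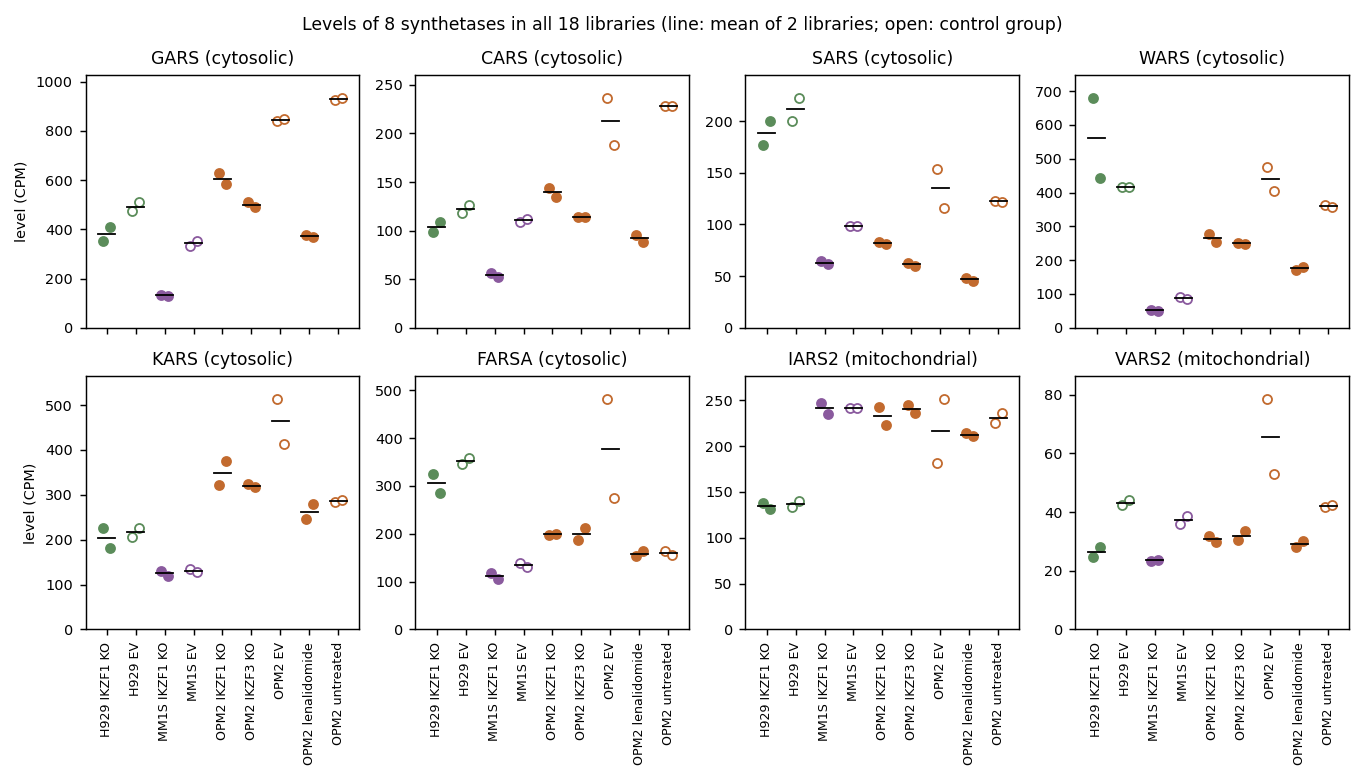
Level in CPM (vertical axis, from 0) of 8 synthetases in each of the 18 libraries, with a line at the mean of the 2 libraries of a group and open symbols for control groups. GARS, CARS and SARS lie lower with lenalidomide and in the MM1S knockout than in their controls, KARS and IARS2 lie close to their controls there, and FARSA is high in the OPM2 empty vector libraries.

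Lenalidomide in OPM2 cells went with lower RNA of all 12 reported ATF4 targets, and otherwise only of the glutamine enzyme QARS and of the mitochondrial VARS2. SARS, GARS and CARS, which charge serine, glycine and cysteine, fell most. Of all genes, 4.58% were called lower and 5.76% higher. The median log2 fold change was -0.85 for the reported targets, -0.07 for the other cytosolic and -0.06 for the mitochondrial genes, against 0 for all genes tested.

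SARS had 47.8 and 45.7 CPM in lenalidomide libraries, against 123 and 122 CPM in untreated libraries (-1.39 ± 0.13, adjusted p = 8.2e-06). GARS had 376 and 368 CPM with lenalidomide, against 928 and 936 CPM in untreated libraries (-1.32 ± 0.10, adjusted p = 1.7e-06). CARS had 95.7 and 88.5 CPM with lenalidomide, against 228 and 228 CPM in untreated libraries (-1.31 ± 0.12, adjusted p = 6.62e-06). The treated libraries of these 3 genes lay at well under the untreated level, and both pairs were tight. WARS had 171 and 181 CPM with lenalidomide, against 363 and 357 CPM in untreated libraries (-1.03 ± 0.16, adjusted p = 0.000538). AARS had 686 and 673 CPM with lenalidomide, against 1280 and 1270 CPM in untreated libraries (-0.91 ± 0.12, adjusted p = 0.000205). EPRS had 585 and 604 CPM with lenalidomide, against 1040 and 1110 CPM in untreated libraries (-0.86 ± 0.17, adjusted p = 0.00496). For all of these the treated libraries lay below the untreated ones without overlap. NARS, the asparagine enzyme, had 281 and 279 CPM with lenalidomide, against 495 and 507 CPM in untreated libraries (-0.84 ± 0.15, adjusted p = 0.00235). MARS had 227 and 222 CPM with lenalidomide, against 374 and 373 CPM in untreated libraries (-0.74 ± 0.12, adjusted p = 0.000915).

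The other reported targets fell less under lenalidomide: YARS by 0.72, IARS by 0.71, LARS by 0.52 and TARS by 0.48 on the log2 scale. QARS was at -0.49 ± 0.15 (adjusted p = 0.0453). The remaining 7 other cytosolic genes stayed without a call, for example KARS, with 246 and 279 CPM in lenalidomide libraries, against 285 and 289 CPM in untreated libraries (-0.13 ± 0.14, adjusted p = 0.651). VARS2 had 28.2 and 30.3 CPM with lenalidomide, against 41.8 and 42.4 CPM in untreated libraries (-0.53 ± 0.16, adjusted p = 0.0433), with no overlap. The other 15 mitochondrial genes ranged from -0.47 (MARS2) to 0.38 (HARS2) without a call. QARS and VARS2 were called in only 4 of 18 fits that left out 1 library, with adjusted p up to 0.3 for QARS and 0.278 for VARS2, and neither was called after scaling by DESeq2's size factors or the upper quartile. LARS and TARS lost their calls without any 1 of the 4 libraries compared, with adjusted p up to 0.161 and 0.1, and EPRS without lenalidomide replicate 1 or untreated replicate 2 (up to 0.0617). Without lenalidomide replicate 1 or without untreated replicate 2, the count of synthetases called was 9, all reported targets.

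**Figure D4:**
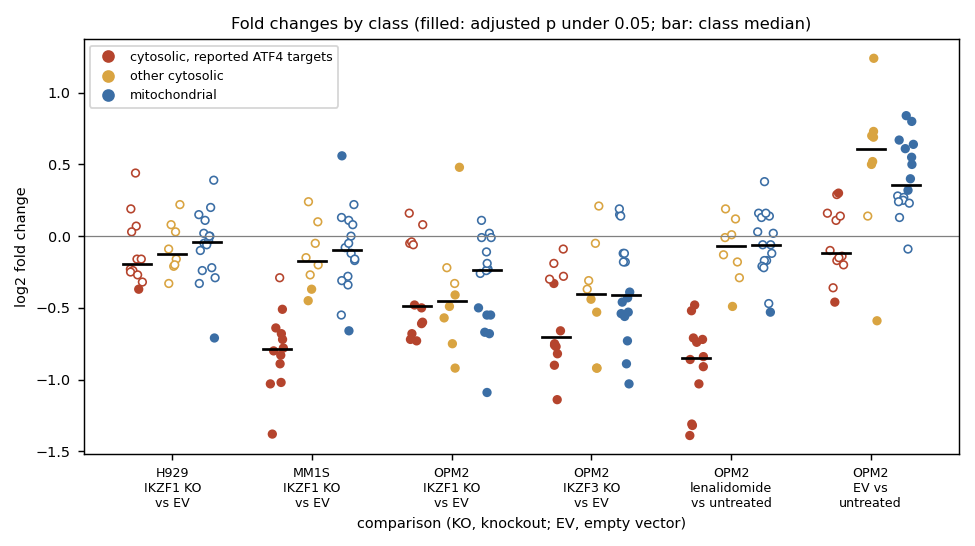
Log2 fold change (vertical axis) of each synthetase, as 1 point, by class and comparison, with filled points for genes called at an adjusted p under 0.05 and bars at class medians. The reported ATF4 targets have the lowest median in MM1S and with lenalidomide, and the other 2 classes have the higher medians in OPM2 empty vector against untreated cells.

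The OPM2 knockouts were set against OPM2 empty vector cells, and these control cells themselves differed from untreated OPM2 cells in many synthetases. In empty vector cells, 6 of the 8 other cytosolic genes and 9 of the 16 mitochondrial genes were called higher than in untreated cells, against 1 of the 12 reported ATF4 targets (YARS). Of all genes, 19.5% were called higher and 15.8% lower. The median log2 fold change was 0.61 for the other cytosolic genes, 0.36 for the mitochondrial genes and -0.12 for the reported targets, against 0 for all genes. DARS, the aspartate enzyme, and EPRS were called lower, and the calls of EPRS and YARS held in only 1 and 3 of 18 fits that left out 1 library.

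FARSA had 481 and 274 CPM in OPM2 empty vector libraries, against 163 and 155 CPM in untreated libraries (1.24 ± 0.19, adjusted p = 0.000964). RARS, the arginine enzyme, had 65.5 and 56.1 CPM, against 33.9 and 39.6 CPM in untreated libraries (0.73 ± 0.14, adjusted p = 0.00236). HARS, the histidine enzyme, had 88.2 and 57.3 CPM, against 43.2 and 46.4 CPM in untreated libraries (0.70 ± 0.17, adjusted p = 0.00708). In all 3 genes empty vector replicate 1 was the higher of the pair, and replicate 2 also exceeded both untreated libraries. KARS had 513 and 414 CPM in empty vector libraries, against 285 and 289 CPM in untreated libraries (0.69 ± 0.14, adjusted p = 0.00241). Among mitochondrial genes, FARS2 had 31.4 and 21.3 CPM in empty vector libraries, against 14.1 and 15.1 CPM in untreated libraries (0.84 ± 0.18, adjusted p = 0.00323). SARS2 had 50.6 and 28.4 CPM in empty vector libraries, against 24.5 and 20.5 CPM in untreated libraries (0.80 ± 0.20, adjusted p = 0.00844). These 2 genes, for mitochondrial phenylalanine and serine tRNAs, again had their highest value in replicate 1. YARS2 had 44.1 and 38.8 CPM in empty vector libraries, against 25.5 and 26.7 CPM in untreated libraries (0.67 ± 0.11, adjusted p = 0.00124). VARS2 had 78.5 and 52.9 CPM in empty vector libraries, against 41.8 and 42.4 CPM in untreated libraries (0.64 ± 0.15, adjusted p = 0.00599). Without empty vector replicate 1, the count of synthetases called against untreated cells was 12 in place of 18, without untreated replicate 1 it was 8 and without untreated replicate 2 it was 9. A fit with the 4 libraries alone called 0 synthetases and 0% of all genes. Vector, doxycycline and any batch of these libraries cannot be told apart.

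**Figure D5:**
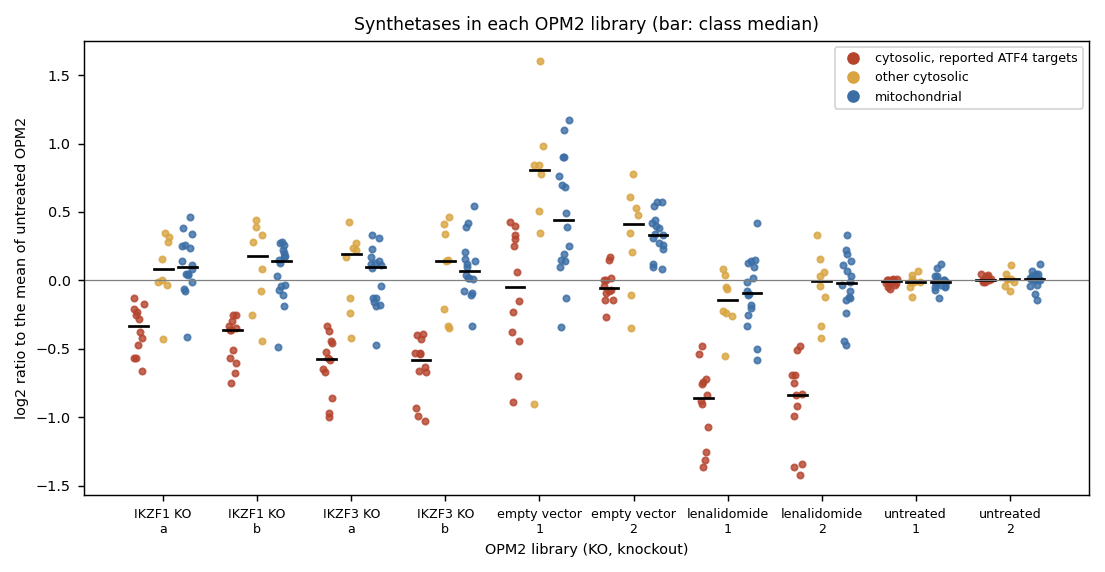
Log2 ratio of each synthetase to its mean in untreated OPM2 cells (vertical axis), by class, in each of the 10 OPM2 libraries, with bars at class medians. The reported ATF4 targets lie below 0 in all 4 knockout and both lenalidomide libraries, and the other classes lie highest in empty vector replicate 1.

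In OPM2 cells, loss of IKZF1 went with lower RNA of 12 cytosolic synthetases and higher RNA of 1 (DARS), and of 6 mitochondrial ones lower, relative to empty vector cells. Calls were spread over the classes, with 7 of 12 reported ATF4 targets and 5 of 8 other cytosolic genes lower, where 20% of all genes were called lower and 16.2% higher. Loss of IKZF3 went with lower RNA of 12 cytosolic (8 reported targets and 4 others) and 9 mitochondrial synthetases and higher RNA of none, where 20.6% of all genes were called lower and 16.2% higher. Both comparisons use the same empty vector libraries.

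Genes that stood higher in empty vector than in untreated cells were among those with the largest falls. Both differences use the same empty vector libraries, so a high value in these enters both. The overlap is therefore not a separate result. FARSA had 198 and 200 CPM in IKZF1 knockout libraries and 186 and 212 CPM in IKZF3 knockout libraries, against 481 and 274 CPM in empty vector libraries. Its log2 fold change was -0.92 ± 0.19 in both knockouts (adjusted p = 0.00251 for IKZF1 and 0.00241 for IKZF3), yet in each knockout its level lay above the 163 and 155 CPM of untreated cells. HARS had 43.8 and 42.3 CPM in IKZF1 knockout libraries and 38 and 38.6 CPM in IKZF3 knockout libraries, against 88.2 and 57.3 CPM in empty vector libraries (-0.75 ± 0.17, adjusted p = 0.00462, and -0.92 ± 0.17, adjusted p = 0.00157). FARSA and HARS are not reported ATF4 targets, and neither has the core in its window. QARS had 121 and 120 CPM in IKZF1 knockout libraries, against 207 and 151 CPM in empty vector libraries (-0.57 ± 0.15, adjusted p = 0.00811).

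SARS had 82.7 and 80.9 CPM in IKZF1 knockout libraries and 62.7 and 59.9 CPM in IKZF3 knockout libraries, against 154 and 116 CPM in empty vector libraries. It fell by 0.72 ± 0.13 (adjusted p = 0.00136) with IKZF1 loss and by 1.14 ± 0.13 (adjusted p = 7.07e-05) with IKZF3 loss. CARS had 144 and 135 CPM in IKZF1 knockout libraries and 114 and 114 CPM in IKZF3 knockout libraries, against 237 and 188 CPM in empty vector libraries (-0.61 ± 0.12, adjusted p = 0.00216, and -0.90 ± 0.12, adjusted p = 0.00021). Unlike FARSA, SARS and CARS lay below untreated cells too in both knockouts. MARS had 270 and 251 CPM in IKZF1 knockout libraries and 250 and 237 CPM in IKZF3 knockout libraries, against 459 and 374 CPM in empty vector libraries (-0.68 ± 0.12, adjusted p = 0.00124, and -0.77 ± 0.12, adjusted p = 0.000526). WARS had 276 and 254 CPM in IKZF1 knockout libraries and 251 and 249 CPM in IKZF3 knockout libraries, against 476 and 404 CPM in empty vector libraries (-0.73 ± 0.15, adjusted p = 0.00309, and -0.82 ± 0.15, adjusted p = 0.0017). YARS fell by 0.60 ± 0.11 with IKZF1 loss (adjusted p = 0.0015), with 301 and 280 CPM in knockout libraries, against 481 and 398 CPM in empty vector libraries. With IKZF3 loss, AARS had 805 and 823 CPM in knockout libraries, against 1520 and 1240 CPM in empty vector libraries (-0.76 ± 0.12, adjusted p = 0.000672). GARS, at 512 and 489 CPM in IKZF3 knockout libraries, against 839 and 847 CPM in empty vector libraries, fell by 0.75 ± 0.10 (adjusted p = 0.00026), and it was the reported target whose empty vector libraries lay closest together. No knockout library of these genes overlapped the empty vector libraries, but the genes had been named for their large fold changes.

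VARS2 fell most of the mitochondrial genes in both OPM2 knockouts, with 31.8 and 29.9 CPM in IKZF1 knockout libraries and 30.4 and 33.5 CPM in IKZF3 knockout libraries, against 78.5 and 52.9 CPM in empty vector libraries. Its log2 fold change was -1.09 ± 0.15 (adjusted p = 0.000361) with IKZF1 loss and -1.03 ± 0.15 (adjusted p = 0.000431) with IKZF3 loss. CARS2 had 66.1 and 66.5 CPM in IKZF1 knockout libraries and 62.6 and 66 CPM in IKZF3 knockout libraries, against 130 and 83.4 CPM in empty vector libraries (-0.68 ± 0.16, adjusted p = 0.00474, and -0.73 ± 0.16, adjusted p = 0.00333). For CARS2 the empty vector libraries differed from each other by more than the lower of them differed from the knockouts. SARS2 had 24.7 and 24.6 CPM in IKZF1 knockout libraries and 19.6 and 22.7 CPM in IKZF3 knockout libraries, against 50.6 and 28.4 CPM in empty vector libraries (-0.67 ± 0.20, adjusted p = 0.0193, and -0.89 ± 0.20, adjusted p = 0.00464). FARS2 had 18.9 and 16.8 CPM in IKZF1 knockout libraries, against 31.4 and 21.3 CPM in empty vector libraries (-0.55 ± 0.18, adjusted p = 0.0241). TARS2 had 98.1 and 109 CPM in IKZF3 knockout libraries, against 175 and 129 CPM in empty vector libraries (-0.56 ± 0.14, adjusted p = 0.0081).

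In the OPM2 IKZF1 knockout the medians were -0.49 (reported targets), -0.45 (other cytosolic) and -0.23 (mitochondrial), against 0 for all genes. Without OPM2 empty vector replicate 1 these medians were -0.36, -0.20 and -0.19, again against 0. SARS2 (adjusted p up to 0.418 over the fits that left out 1 library), FARS2 (up to 0.347), TARS2 (up to 0.15), VARS (up to 0.247), KARS (up to 0.209), QARS (up to 0.0744) and DARS (up to 0.212) then lost their calls. Without knockout library a, 12 synthetases were called. With IKZF3 loss and without empty vector replicate 1, SARS was at -0.89, GARS at -0.73, HARS at -0.55 and FARSA at -0.43. Without IKZF3 knockout library a, 13 synthetases were called. IARS (adjusted p = 0.0494) was called in only 1 of 18 such fits with IKZF3 loss. Fits with only the compared libraries called 0 synthetases in either knockout, and 0.929% (IKZF1) and 0.419% (IKZF3) of all genes.

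Against untreated OPM2 cells, calls in the knockouts were confined to cytosolic genes. The IKZF1 knockout had CARS, GARS, MARS and SARS lower, by 0.71, 0.62, 0.52 and 0.58 on the log2 scale (adjusted p from 0.00183 to 0.0128), where 3.69% of all genes were lower. The IKZF3 knockout had 9 synthetases lower, all reported ATF4 targets, where 4.53% of all genes were lower. CARS and SARS led these at -1.0 ± 0.12 (adjusted p = 0.000129) and -1.0 ± 0.13 (adjusted p = 0.000224), followed by GARS at -0.90 ± 0.10 (adjusted p = 0.000101). NARS, AARS, MARS, WARS, IARS and TARS fell by 0.44 (TARS) to 0.66 (NARS) on the log2 scale, and FARSB was called higher, by 0.44, where 3.74% of all genes were higher. The untreated cells had neither vector nor doxycycline, so this comparison differs from that with empty vector cells in more than the library. Relative to the untreated mean, all 12 reported targets were lower in all 4 knockout libraries and both lenalidomide libraries, with medians of -0.33 and -0.36 for IKZF1 knockout, -0.58 and -0.59 for IKZF3 knockout and -0.86 and -0.84 for lenalidomide. In the empty vector libraries the medians of the reported targets were -0.05 and -0.06. The other cytosolic genes had medians of 0.81 and 0.42 in the empty vector libraries and of 0.08 to 0.20 in the knockout libraries.

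The direct comparison of IKZF1 with IKZF3 knockout in OPM2 called 0 synthetases by edgeR, by DESeq2's Wald test and by limma-voom, where 2.59% of all genes were called. At an unadjusted p under 0.05 there were 7, namely AARS, CARS, GARS, IARS, NARS and SARS, each higher in the IKZF1 knockout by 0.26 to 0.42 on the log2 scale, and PARS2 at -0.39. Each of the 12 reported targets was on the higher side in the IKZF1 knockout, with a median of 0.26. Without either empty vector library, 6 cytosolic synthetases were called higher in the IKZF1 knockout, so the shared estimate of spread bears on this count.

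The effect of IKZF1 loss in MM1S differed from that in OPM2 in 6 synthetases. EPRS (-0.99 ± 0.24, adjusted p = 0.0117), GARS (-0.91 ± 0.15, adjusted p = 0.000993), IARS (-0.67 ± 0.18, adjusted p = 0.0163) and TARS (-0.62 ± 0.16, adjusted p = 0.0129) were lower in MM1S, where 8.94% of all genes were. QARS (0.81 ± 0.21, adjusted p = 0.0141) and PARS2 (0.75 ± 0.23, adjusted p = 0.0343) were higher in MM1S, where 11.8% of all genes were. Without MM1S knockout library b only 1 of the 6 was called, without MM1S empty vector replicate 2 the count was 3, and without OPM2 empty vector replicate 1 it was 11. In H929 relative to OPM2, the effect was higher for WARS (1.17 ± 0.22, adjusted p = 0.00472, and 0.83 without H929 knockout library a), HARS (0.97 ± 0.24, adjusted p = 0.0196) and YARS2 (0.55 ± 0.16, adjusted p = 0.0346), where 6.51% of all genes were. That of YARS2 was called in 4 of 18 fits that left out 1 library. Without OPM2 empty vector replicate 1 these 3 were at 1.01, 0.60 and 0.43.

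GARS and VARS2 were the only synthetases called lower in all 5 knockout and drug comparisons, 3 of which are in OPM2. The H929 call of GARS held in 7 of 18 fits that left out 1 library and the lenalidomide call of VARS2 in 4, and against untreated cells VARS2 was called in neither OPM2 knockout. AARS, CARS, MARS, SARS, WARS and YARS were called lower in all but H929. EARS2, IARS2, LARS2, MARS2, RARS2 and WARS2 were called in none. The mitochondrial isoleucine enzyme IARS2, for example, had 247 and 235 CPM in MM1S knockout libraries, against 241 and 242 CPM in empty vector libraries (0.00 ± 0.13). It had 214 and 211 CPM with lenalidomide, against 225 and 236 CPM in untreated cells. All 7 cytosolic genes with a TGATGNAA match were called lower in MM1S, where 12.6% of all genes were, and with lenalidomide, where 4.58% were. Of the reported targets without a match or without a window, EPRS, SARS, WARS and YARS were called lower in both as well, and YARS2, the mitochondrial gene with a match, in neither. HARS and HARS2 have divergent annotated starts 85 bases apart on chromosome 5, and with lenalidomide they stood at -0.18 ± 0.17 and 0.38 ± 0.15, neither called.

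The control cells of the 3 lines differed in most synthetases, as they did in most genes. Between H929 and OPM2 empty vector cells, 9 synthetases were higher and 18 lower in H929, where 64.6% of all genes were called. AARS stood at -1.47 ± 0.12 (adjusted p = 1.05e-07) and KARS at -1.10 ± 0.14 (adjusted p = 6.56e-06), and LARS at 1.26 ± 0.13 (adjusted p = 8.53e-07) and RARS at 1.00 ± 0.14 (adjusted p = 2.14e-05). The mitochondrial cysteine enzyme CARS2 had 34.5 and 34.3 CPM in H929, against 130 and 83.4 CPM in OPM2 empty vector libraries (-1.63 ± 0.16, adjusted p = 5.78e-07). RARS2, NARS2 and AARS2 were lower in H929 by 0.88, 0.83 and 0.72 on the log2 scale. MM1S had the lowest WARS, with 89.7 and 85.1 CPM in MM1S, against 476 and 404 CPM in OPM2 empty vector libraries (-2.33 ± 0.16, adjusted p = 1.15e-08). Between these lines 67.5% of all genes and 26 synthetases were called, 5 higher and 21 lower in MM1S. KARS (-1.83), AARS (-1.71), FARSA (-1.48) and TARS2 (-1.34) were lower in MM1S, as were CARS2 (-0.98) and FARS2 (-0.88), and WARS2 was higher (1.02 ± 0.17, adjusted p = 0.00011). WARS and WARS2, the enzymes for tryptophan, thus stood on opposite sides of this comparison. Without OPM2 empty vector replicate 1, each named gene of both comparisons kept its call and direction, with 24 synthetases called in each. In H929 against OPM2, AARS was then at -1.29 and CARS2 at -1.24. In MM1S against OPM2, WARS was at -2.17, FARSA at -0.98, CARS2 at -0.59 and FARS2 at -0.54.

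H929 against MM1S empty vector cells rests on no OPM2 library beyond the shared spread. It had 12 cytosolic synthetases higher and 1 lower (EPRS) in H929, and 5 mitochondrial ones in each direction, where 63.2% of all genes were called. WARS had 415 and 417 CPM in H929, against 89.7 and 85.1 CPM in MM1S (2.25 ± 0.16, adjusted p = 2.01e-08). FARSA had 345 and 359 CPM in H929, against 139 and 131 CPM in MM1S (1.38 ± 0.19, adjusted p = 1.55e-05). SARS and NARS stood higher in H929 by 1.1 and 0.98 on the log2 scale. TARS2 (0.94) and PARS2 (0.87) were higher and RARS2 (-0.89) and IARS2 (-0.82) lower in H929. Across all 9 groups the widest span of group means was that of WARS, with 562 CPM in the H929 knockout and 50.9 CPM in the MM1S knockout, a ratio of 11. GARS spanned a ratio of 7.10, and EARS2 the narrowest range of all synthetases, at 1.37.

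Genes outside the synthetases that ATF4 is reported to drive, for amino acid synthesis and the stress response, were counted on the same terms, and 16 of a list of 17 were tested. In MM1S 13 fell and 1 rose, where 12.6% of all genes fell and 15.6% rose. With lenalidomide 11 fell, where 4.58% of all genes did. In the OPM2 knockouts 12 fell in each, where 20% (IKZF1) and 20.6% (IKZF3) of all genes did. Without empty vector replicate 1 these 2 counts were 10 and 11, where 10% and 11.3% of all genes fell, and against untreated cells 12 and 13. In empty vector against untreated OPM2 cells, 3 genes of the list were lower and 1 higher, where 15.8% of all genes were lower and 19.5% higher. The median log2 fold change of the list was -0.25 there, and -0.37 without empty vector replicate 1. In H929 none was called lower with all libraries in the fit, where 4.6% of all genes were. ATF3, a stress-induced factor, rose there by 0.87 ± 0.16 (adjusted p = 0.00215). Of the 16 genes of the list, 12 had a negative fold change in H929. Some of them were called lower and others higher without OPM2 empty vector replicate 1, at an unchanged median. The absence of calls for lower RNA in H929 therefore does not show that these genes were unchanged. Their median log2 fold change was -1.38 in MM1S, -1.58 with lenalidomide, -0.90 and -1.57 in the OPM2 IKZF1 and IKZF3 knockouts and -0.23 in H929. In OPM2, PSAT1 had 0 to 6 counts per library, PHGDH 0 to 3 counts and VLDLR 0.0651 to 2.62 CPM. These genes are among the 16, so their OPM2 fold changes rest on few reads and enter the OPM2 medians. ATF4 RNA, named because the list bears its name, had 204 and 200 CPM in MM1S knockout libraries, against 526 and 510 CPM in empty vector libraries (-1.36 ± 0.16, adjusted p = 2.78e-05). With lenalidomide ATF4 had 402 and 365 CPM, against 908 and 887 CPM in untreated libraries (-1.23 ± 0.16, adjusted p = 0.000193). In H929 it had 343 and 382 CPM in knockout libraries, against 421 and 447 CPM in empty vector libraries, without a call. CHAC1, which degrades glutathione, fell by 2.21 ± 0.28 in MM1S (adjusted p = 4.98e-05) and by 3.47 ± 0.26 with lenalidomide (adjusted p = 8.34e-07). ATF4 activity was not measured, and its part in the synthetase values was not tested.

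Partners of tRNA charging, which include the scaffold proteins of the multisynthetase complex and the tRNA export receptor, were counted as well. Of 16 tested, none was called in H929, where 4.6% of all genes were lower and 5.92% higher. In MM1S 3 fell (18.8%), where 12.6% of all genes did, and with lenalidomide 1 fell (6.25%), where 4.58% did. XPOT, the exportin that carries tRNA out of the nucleus, was that 1 gene, with 249 and 241 CPM in lenalidomide libraries, against 455 and 477 CPM in untreated libraries (-0.93 ± 0.17, adjusted p = 0.00239). In MM1S it had 141 and 138 CPM in knockout libraries, against 268 and 285 CPM in empty vector libraries (-0.99 ± 0.17, adjusted p = 0.000567), and PSTK and TRNT1 fell by 0.98 and 0.56. The OPM2 IKZF1 and IKZF3 knockouts had 7 and 9 partners lower and 0 and 1 higher against empty vector cells, AARSD1, EEF1E1 and PTRH2 among those lower in both. Of all genes 20% (IKZF1) and 20.6% (IKZF3) were lower there and 16.2% higher in each. AARSD1 rests on few reads, with 7 and 5 counts in IKZF1 and 5 and 6 counts in IKZF3 knockout libraries. Empty vector libraries had 18 and 18 counts of AARSD1, and untreated libraries had 8 and 4. The median of the partners was -0.26 (IKZF1) and -0.54 (IKZF3), and without empty vector replicate 1 it was -0.22 and -0.34. Against untreated cells 0 and 1 partners were lower, where 3.69% (IKZF1) and 4.53% (IKZF3) of all genes were. Of 9 elongation factors, which bring charged tRNA to the ribosome or move it along, 0 were called in H929 and MM1S with all libraries in the fit. In H929 8 of them had a negative fold change, with a median of -0.27. Some of these passed the test without OPM2 empty vector replicate 1, so the count of 0 does not show that they were unchanged. Lenalidomide had 2 lower, EEF2 (-0.96 ± 0.13, adjusted p = 0.000246) and EEF1A1 (-0.49 ± 0.11, adjusted p = 0.0129), and each OPM2 knockout had 7 lower against empty vector cells. The median of the elongation factors was -0.35 with lenalidomide and -0.73 in each OPM2 knockout. Without empty vector replicate 1 these medians were -0.36 with lenalidomide, -0.35 with IKZF1 and -0.39 with IKZF3 knockout. Against untreated cells each knockout had 1 lower, where 3.69% (IKZF1) and 4.53% (IKZF3) of all genes were. In empty vector against untreated OPM2 cells, 5 elongation factors and 7 charging partners were called higher, where 19.5% of all genes were, and 3 and 4 without empty vector replicate 1.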

How the data were processed

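RNA came from sorted live cells, and the libraries were of the TruSeq RNA type, per the labels' protocols. The authors deposited raw counts per Entrez gene, 1 column per library; per the submitters' processing notes Subread, featureCounts and limma were used with build GRCh38, and versions and strand settings are not given in the sources used here. The authors also deposited a log2 FPKM table in which each control group is merged to 1 column; its steps are not given. Of 28395 genes, 385 without a symbol (at most 0.0276% of counts) were kept under their Entrez IDs.

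Counts were filtered with filterByExpr, scaled by TMM and tested with edgeR 4.0.16 in R 4.3.3 (quasi-likelihood, robust) in 1 model with a coefficient for each of the 9 groups and 9 residual degrees of freedom. P-values were adjusted by Benjamini-Hochberg over all 14571 genes. Levels are CPM on effective library sizes. Knockout columns were assigned to groups only and are called a and b. An exact permutation test of 2 libraries against 2 was not used, since its smallest p is 0.333.

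The alternatives tried were limma-voom (limma 3.58.1), the Wald test of DESeq2 1.42.0, scaling by the upper quartile or by DESeq2's size factors, no filter or a minimum of 5 CPM in 2 libraries, only the groups compared, a replicate block, untreated as control and each library left out. Counts and medians in the lists of other genes without 1 OPM2 empty vector library or against untreated cells were added after the data were seen. The genes, lists and motif were chosen with earlier results of these data known. Library values are given for up to 8 cytosolic and 4 mitochondrial called genes with the largest fold changes per knockout or drug comparison, and up to 4 of each class elsewhere; further genes were named after their values were seen. Promoter windows are RefSeq's.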

Additional observations from a re-analysis of the deposited data

Results flagged for a closer look

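The listed results are differences in the effect of IKZF1 knockout between lines that passed edgeR's quasi-likelihood test of the difference itself, in log2 units. In MM1S minus H929 they were WARS -1.21, GARS -1.01, TARS -0.87, CARS -0.78, YARS -0.77, MARS -0.73 and AARS -0.56. That is 7 of 36 synthetases lower, where 6.94% of all genes were. WARS stood at -0.78 in MM1S and 0.44 in H929, where its knockout libraries lay at 681 and 443 CPM; without knockout library a the difference was -0.88.

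In MM1S minus OPM2 they were EPRS -0.99, GARS -0.91, IARS -0.67, TARS -0.62, QARS 0.81 and PARS2 0.75. That is 4 of 36 synthetases lower and 2 of 36 higher, where 8.94% of all genes were lower and 11.8% higher. In H929 minus OPM2 they were WARS 1.17, HARS 0.97 and YARS2 0.55. That is 3 of 36 synthetases higher, where 6.51% of all genes were. The counts in both differences that include OPM2 lie near or below the shares of all genes. The differences that include OPM2 rest on its empty vector libraries, of which replicate 1 stood apart.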

How the results depend on the processing

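Counts of synthetases called are given here per comparison, and the medians are those of cytosolic minus those of mitochondrial genes. Scaling by DESeq2 size factors or the upper quartile, other low-count filters, limma-voom and DESeq2's Wald test kept every count within 1.5 times that reported, except that the Wald test gave 6 in place of 3 for H929 minus OPM2. Of single named genes, 2129 values kept direction and side of the threshold, 148 kept direction only and 4 reversed. All 4 came with untreated OPM2 as control: FARSA at 0.32, SARS2 at 0.13 and FARS2 at 0.29 for IKZF1 knockout, and FARSA at 0.32 for IKZF3 knockout. With that control, the counts were 4 for IKZF1 and 10 for IKZF3 knockout, and the differences of medians -0.38 and -0.50. Fits of only the groups compared called 0 for IKZF1 knockout, 0 for IKZF3 knockout and 0 for empty vector against untreated OPM2, 15 for MM1S minus H929, 1 for MM1S minus OPM2 and 0 for H929 minus OPM2. Between empty vector cells they called 11 for H929 against OPM2 and 12 for MM1S against OPM2. In MM1S such a fit called 21 synthetases in place of 15, with 55.4% of all genes called in place of 28.2%. These fits have fewer libraries and do not share the spread of the other groups, and the cause of the changed counts was not tested.

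Leaving out 1 library at a time gave 0 to 11 called in H929, 12 to 25 in OPM2 with IKZF1 knockout, 13 to 24 with IKZF3 knockout, 9 to 17 with lenalidomide and 8 to 26 in empty vector against untreated OPM2. For differences of effects it gave 6 to 15 for MM1S minus H929, 1 to 21 for MM1S minus OPM2, 1 to 25 for H929 minus OPM2 and 0 to 6 for IKZF1 against IKZF3 knockout. Between H929 and OPM2 empty vector cells it gave 17 to 27. The difference of medians ran from -0.17 to -0.06 in H929, from -0.54 to -0.41 in MM1S, from -0.33 to -0.07 with IKZF1 and from -0.23 to -0.07 with IKZF3 knockout in OPM2.

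A replicate block over the empty vector and untreated libraries called 4 synthetases in empty vector against untreated OPM2, 19 in H929 against OPM2, 21 in MM1S against OPM2 and 18 in H929 against MM1S. Same-numbered libraries did not deviate together (r of -0.08 to 0.12 over genes), so they share only a number. No paired analysis was possible for the knockouts, whose count columns share at most 1 number with those of their controls. These knockout columns could also not be tied to the numbers in the titles. Lenalidomide libraries are labelled A and B and untreated ones are numbered, so their labels give no pairs. The smallest count of any synthetase in a library was 69. With 2 libraries a group and an uneven control pair in the shared estimate of spread, a missing call does not show that a gene was the same.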
